A study of Mus musculus with 18 samples.

Results

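The comparison described here is that of FPC-GFP with CON-GFP livers, which holds 12 of the 18 samples of the series, with 6 livers in each group, chosen by diet and vector. Both groups were male C57BL/6J mice, bought at 7 weeks of age, that had received an AAV8 vector carrying green fluorescent protein (GFP) under the hepatocyte-specific TBG promoter 1 week before the diets began. CON-GFP mice ate a purified control diet for 16 weeks. FPC-GFP mice ate, over the same 16 weeks, a high-fat diet enriched in fructose, palmitate and cholesterol (FPC) and drank water with fructose and glucose. All mice were fasted for 4 h before collection. The groups therefore differ in the whole diet, so that fat, sterol, sugar and the drinking water cannot be told apart, and the GFP vector is shared by both. RNA of whole liver was sequenced with 1 library per mouse, and total counts lay between 17741598 and 33588153 in CON-GFP and between 17813507 and 31134367 in FPC-GFP. Albumin, the defining secreted protein of hepatocytes, was at 47977 to 71639 CPM (median 56318) in CON-GFP livers and 42344 to 62191 CPM (median 54520) in FPC-GFP livers, and its log2 fold change of -0.15 ± 0.15 did not pass the test (adjusted p = 0.466). All 12 libraries thus carry the hepatocyte marker that their tissue label calls for, although 5 of 10 tested hepatocyte markers fell (3 to 4 with any single library left out, and 2 within the sample sheet numbers 55 to 63 described later).

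The liver takes up dietary fructose through ketohexokinase and turns surplus carbon into fatty acids under the transcription factors SREBP1c, ChREBP and LXR. Dietary cholesterol acts at the other end of sterol control: it lowers SREBP2, the activator of cholesterol synthesis, and its oxysterol products activate LXR. Lipid that is not burned in mitochondria or exported in VLDL is stored in droplets coated by perilipins and CIDE proteins. Chronic overload of this kind is known for attracting macrophages, activating stellate cells and dampening the specialised metabolic programme of hepatocytes. The results are ordered by these roles.

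Values are CPM (counts scaled to a common library total), scaled by the trimmed mean of M values over the 12 libraries, and a log2 fold change is FPC-GFP minus CON-GFP, given with its standard error. A gene is said to have risen or fallen when its adjusted p was below 0.05 in edgeR's quasi-likelihood test over all 14307 tested genes, and to be called when it also changed at least 2-fold. Group ranges are given as lowest to highest liver with the median, n = 6 in each group. At an adjusted p below 0.05, 1850 genes rose (12.9% of those tested) and 1560 fell (10.9%). Called genes numbered 681 higher (4.76%) and 349 lower (2.44%), and the 6 livers of a group lay wholly above those of the other for 866 genes that were higher (6.05%) and 662 that were lower (4.63%). The count of each gene list below is to be read against these shares. Changes of at least 4-fold were seen in 88 called genes that were higher and 74 that were lower. Among 12596 tested protein-coding genes, 651 were called higher (5.17%) and 236 lower (1.87%), against 4.76% and 2.44% of all tested genes. Of 303 tested lincRNAs, 11 were called higher and 38 lower (12.5%), and of 290 antisense transcripts, 6 were called higher and 25 lower (8.62%). The strand setting of the counting is not given, so reads of an antisense transcript and of the gene opposite it cannot be told apart.

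**Figure D1:**
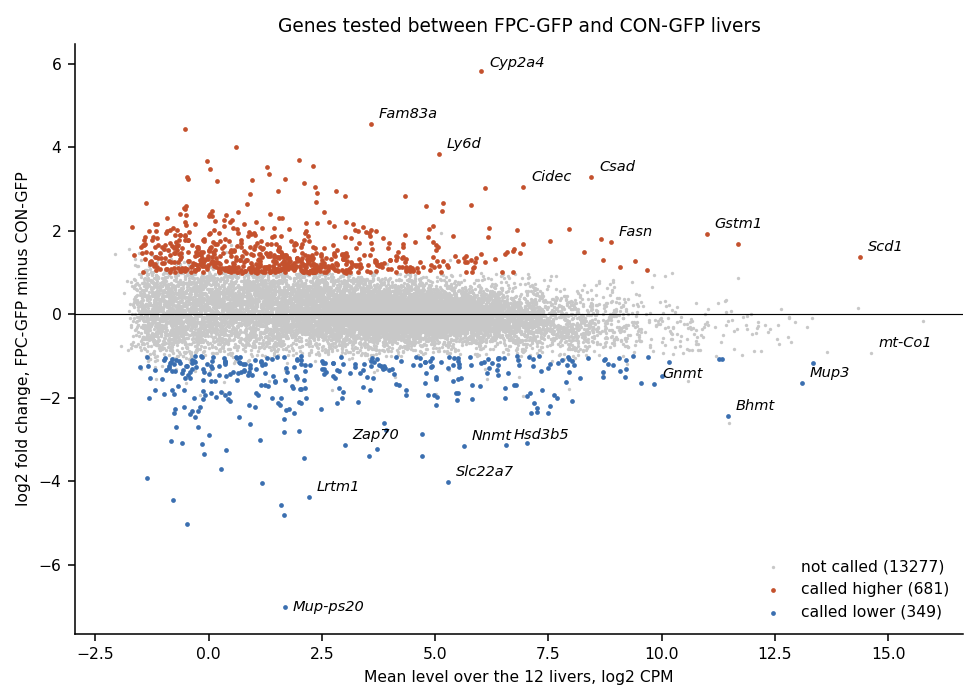
Each point is 1 of the 14307 tested genes, with its mean level over the 12 livers (log2 CPM) on the horizontal axis and its log2 fold change, FPC-GFP minus CON-GFP, on the vertical axis. The 681 genes called higher are red and the 349 called lower are blue, and Csad, Gstm1 and Scd1 stand out among abundant genes that were higher, and Bhmt and Mup3 among abundant genes that were lower.

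The first principal component of log2(CPM + 0.5) held 44.2% of the variance and separated the groups, with all CON-GFP livers below 0 and all FPC-GFP livers above it. Liver 2 of CON-GFP lay farthest out on it (-59.48), and liver 11 of FPC-GFP lay farthest out on the second component (39.28). Without these livers, 598 genes were called higher and 265 lower. The labels end in the letter S and a number, taken here as a sample sheet number although the labels do not say so. Of the 12 libraries, 9 have numbers 55 to 63. Within those libraries 511 genes were called higher and 256 lower, while the remaining livers, 2 of CON-GFP and 1 of FPC-GFP, were too few to compare with each other. Scaling by library size alone moved the median log2 fold change of all genes by 0.197 and the called genes to 1054 higher and 225 lower, so that 82.4% of called genes were higher in place of 66.1%. Mitochondrially encoded genes took 4.95 to 11.7% of counts in CON-GFP and 3.41 to 5.25% in FPC-GFP, and the part of this share in the results was not tested.

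**Figure D2:**
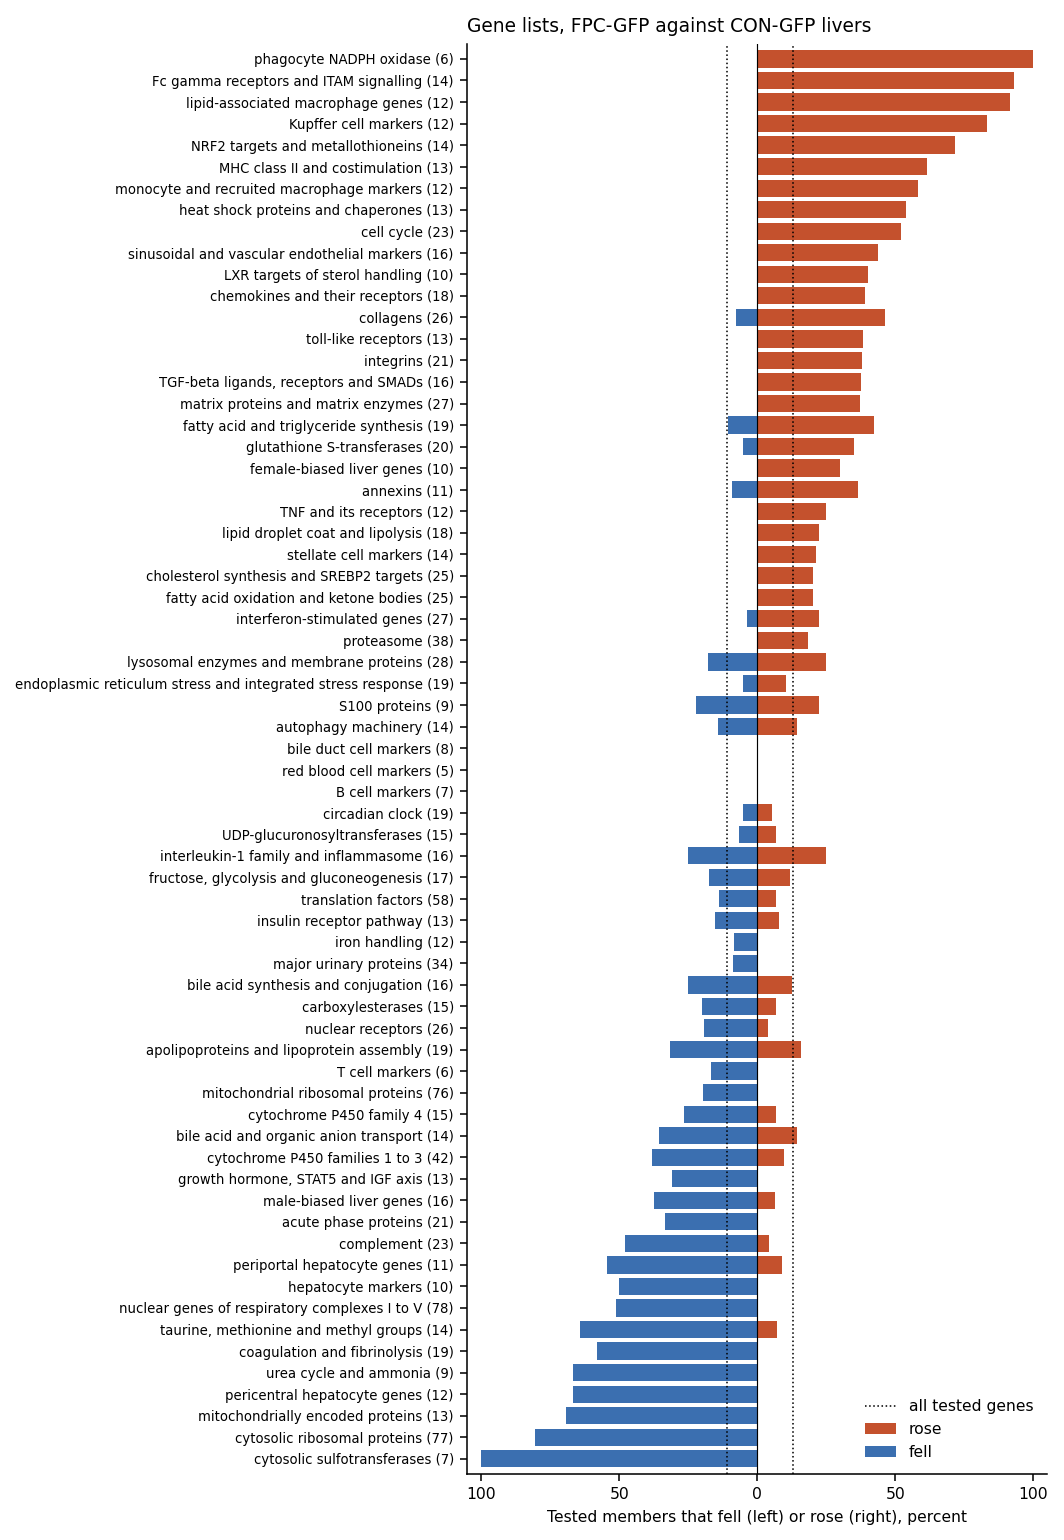
Bars give, for each gene list with at least 5 tested members (number in brackets), the percent of members that fell (blue, left) or rose (red, right) in FPC-GFP against CON-GFP livers. Dotted lines mark 10.9% and 12.9%, the shares of all tested genes. Macrophage lists are at the top, and ribosomal, mitochondrial and sulfotransferase lists are at the bottom.

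Several genes of fatty acid synthesis rose in FPC-GFP livers. Of 19 tested genes of fatty acid and triglyceride synthesis, 8 rose and 2 fell, against 12.9% and 10.9% of all genes, and the list's median log2 fold change was 0.39. Together the list took 1.72% of all CPM in CON-GFP and 3.77% in FPC-GFP, and without Scd1 0.545% and 0.711%. Srebf1, which encodes SREBP1c, was at 97.9 to 227 CPM (median 172) in CON-GFP livers and 366 to 587 CPM (median 438) in FPC-GFP livers. The groups did not overlap, and the log2 fold change was 1.49 ± 0.18 (adjusted p = 0.000198). Fasn, the fatty acid synthase, was at 89.3 to 380.2 CPM (median 198) in CON-GFP livers and 597 to 839 CPM (median 724) in FPC-GFP livers. Every FPC-GFP liver was again above every CON-GFP liver (log2 fold change 1.74 ± 0.34, adjusted p = 0.0026). Scd1, the desaturase that makes oleate and palmitoleate, was at 1047 to 18267 CPM (median 13443) in CON-GFP livers and 23175 to 36740 CPM (median 31389) in FPC-GFP livers. Its groups were separate as well, and liver 7 of CON-GFP, at 1047 CPM, lay far below the other CON-GFP livers (log2 fold change 1.38 ± 0.42, adjusted p = 0.0278). Acly, which supplies cytosolic acetyl-CoA, rose by 0.82 ± 0.27 on the log2 scale (adjusted p = 0.0371), and Pnpla3, a droplet-bound hydrolase under SREBP1c, rose by 1.61 ± 0.45 (adjusted p = 0.0176). Lpin1 and Dgat2 fell. Lpin1 encodes the phosphatidate phosphatase that makes diacylglycerol and responds to fasting. It was at 48.9 to 731 CPM (median 162) in CON-GFP livers and 31.4 to 117 CPM (median 41.5) in FPC-GFP livers, with overlapping groups (log2 fold change -2.24 ± 0.55, adjusted p = 0.0102). Within sheet numbers 55 to 63, 4 list members rose and 1 fell. With any single library left out, 6 to 9 rose and 1 to 2 fell. The number that fell was 1 without CON-GFP 1, 3 or 8 or FPC-GFP 11, 12 or 19. Scd1 did not pass without CON-GFP 1 or FPC-GFP 16 (adjusted p from 0.0501 to 0.0561). Acly did not pass without CON-GFP 1, 2, 3 or 7 or FPC-GFP 11, 19 or 20 (adjusted p from 0.0524 to 0.0749).

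**Figure D3:**
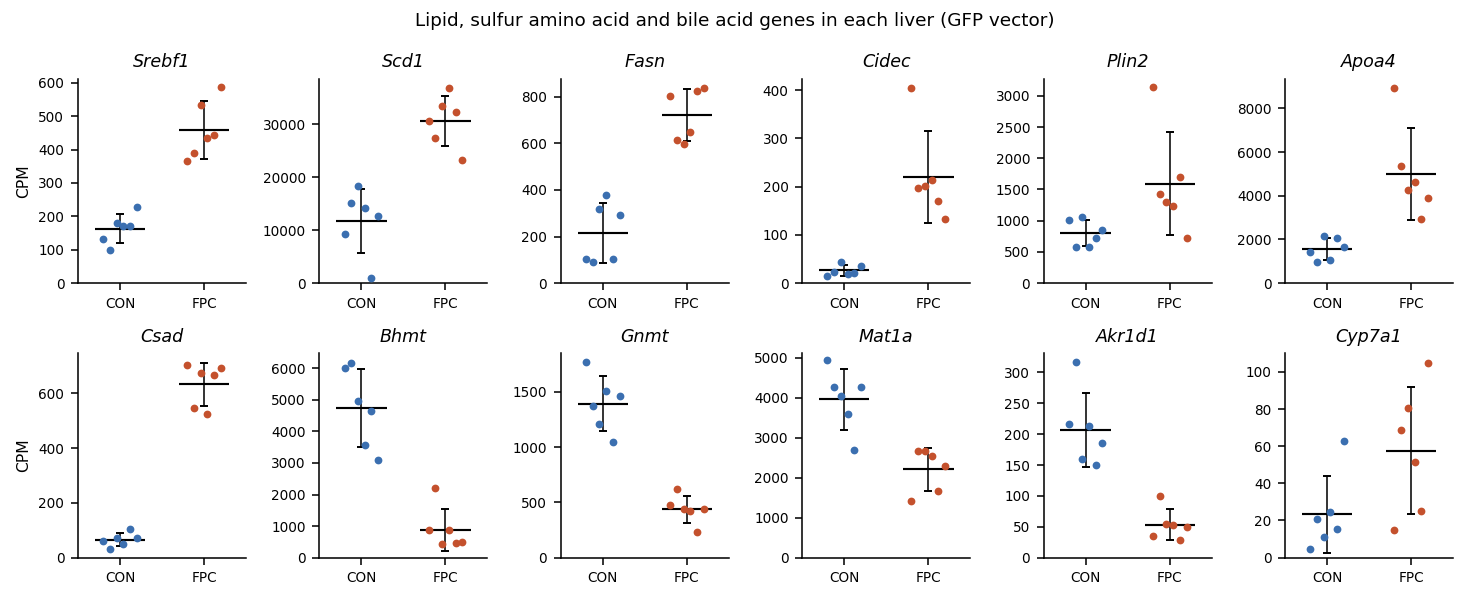
Levels in CPM, on axes from 0, of 12 genes of lipid, sulfur amino acid and bile acid metabolism in each of the 6 CON-GFP (blue) and 6 FPC-GFP (red) livers; horizontal lines are means and bars are SD. The groups are separate for Srebf1, Scd1, Fasn, Cidec, Apoa4, Csad, Bhmt, Gnmt, Mat1a and Akr1d1 and overlap for Plin2 and Cyp7a1.

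Genes that LXR controls rose in part. Of 10 tested LXR targets of sterol handling 4 rose and none fell, namely Srebf1, Pltp, Abcg1 and Lpcat3. Abcg1, a cholesterol exporter, was at 3.92 to 6.62 CPM (median 4.84) in CON-GFP livers and 8.46 to 12.8 CPM (median 12.1) in FPC-GFP livers, with separate groups (log2 fold change 1.21 ± 0.15, adjusted p = 0.000198). Pltp, the phospholipid transfer protein, was at 11.4 to 83.0 CPM (median 27.0) in CON-GFP livers and 38.7 to 118 CPM (median 99.7) in FPC-GFP livers, with overlapping groups (log2 fold change 1.44 ± 0.40, adjusted p = 0.0183). The exporters Abca1, Abcg5 and Abcg8, which are classical LXR targets, did not pass the test, with log2 fold changes of 0.02 ± 0.22, 0.28 ± 0.25 and 0.47 ± 0.29. Abcg5 and Abcg8, whose products pump sterol into bile as a pair, spread widely among FPC-GFP livers, at 54.1 to 258 CPM (median 175) and 45.2 to 258 CPM (median 152), against 120.0 to 146 CPM (median 132) and 81.1 to 133 CPM (median 109.8) in CON-GFP. Abcg8 passed, at a log2 fold change of 0.66, without FPC-GFP 11 (adjusted p = 0.0312).

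No gene of cholesterol synthesis or of the SREBP2 pathway fell on the cholesterol-rich diet in edgeR's test. Of 25 tested genes 5 rose, and the median log2 fold change of the list was 0.25, against 0.0121 over all genes. Sqle, squalene epoxidase, was at 0.665 to 5.01 CPM (median 1.51) in CON-GFP livers and 3.11 to 6.99 CPM (median 4.65) in FPC-GFP livers. The groups overlapped (log2 fold change 1.28 ± 0.39, adjusted p = 0.0281). Within sheet numbers 55 to 63, 3 of the genes rose, and under scaling by library size alone 9 did. Leaving out single libraries in turn, 4 to 9 rose and 0 to 1 fell. Of its genes the number that rose was 9 without CON-GFP 6. Sqle did not pass without CON-GFP 1 or 2 or FPC-GFP 11 (adjusted p from 0.05 to 0.0582).

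Among droplet genes Cidec changed most. Cidec, on chromosome 6 at 113424634-113435760 (GRCm38), encodes the CIDE protein that enlarges droplets by moving lipid between them. It was at 15.4 to 44.5 CPM (median 21.9) in CON-GFP livers and 134 to 404 CPM (median 199) in FPC-GFP livers. The groups were separate by a wide margin, and the log2 fold change was 3.05 ± 0.30 (8.30-fold, adjusted p = 5.75e-05). Cidea, a related droplet protein of brown fat and fatty liver, was at 2.92 to 17.9 CPM (median 12.3) in CON-GFP livers and 4.97 to 86.3 CPM (median 46.2) in FPC-GFP livers, with overlapping groups (log2 fold change 2.05 ± 0.50, adjusted p = 0.00963). Plin2, the main perilipin coat of liver droplets, was at 573 to 1062 CPM (median 788) in CON-GFP livers and 723 to 3142 CPM (median 1367) in FPC-GFP livers. Liver 11 of FPC-GFP held the highest value and liver 20 the lowest of its group, within the CON-GFP range (log2 fold change 0.99 ± 0.28, adjusted p = 0.02). Pparg, the nuclear receptor known to drive Cidec in fatty liver, rose by 0.80 ± 0.27 on the log2 scale (adjusted p = 0.0457). Of the 18 tested droplet and lipolysis genes, 4 rose and none fell. Pparg did not pass without CON-GFP 1, 2, 3 or 6 or FPC-GFP 12, 13, 16, 19 or 20 (adjusted p from 0.0559 to 0.0951).

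Fatty acid oxidation genes changed in few members. Of 25 tested genes 5 rose and none fell. Acaa1b and Ehhadh, enzymes of peroxisomal beta-oxidation, were among them: Ehhadh was at 210.5 to 719 CPM (median 364) in CON-GFP livers and 649 to 1333 CPM (median 949) in FPC-GFP livers (log2 fold change 1.29 ± 0.26, adjusted p = 0.00306), and Acaa1b rose by 0.87 ± 0.20 on the log2 scale (adjusted p = 0.00667). Fgf21, a liver hormone of nutrient stress, was at 5.73 to 16.9 CPM (median 8.55) in CON-GFP livers and 14.9 to 38.4 CPM (median 24.4) in FPC-GFP livers and rose by 1.38 ± 0.27 (adjusted p = 0.00283). The mitochondrial gate enzyme Cpt1a and the receptor Ppara did not pass, with log2 fold changes of -0.08 ± 0.15 and 0.00 ± 0.13. Scaling by library size alone gave 13 risen genes in this list.

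Among 19 tested apolipoprotein and lipoprotein assembly genes, 3 rose and 6 fell, and under scaling by library size alone 4 rose and 1 fell. Apoa4, an apolipoprotein known to follow liver triglyceride, was at 972 to 2156 CPM (median 1533) in CON-GFP livers and 2925 to 8949 CPM (median 4431) in FPC-GFP livers. Every liver of FPC-GFP exceeded every liver of CON-GFP (log2 fold change 1.69 ± 0.27, adjusted p = 0.00078). Lpl, the lipase that adult hepatocytes express little of and macrophages express, was at 8.07 to 17.6 CPM (median 10.8) in CON-GFP livers and 31.3 to 105.4 CPM (median 40.5) in FPC-GFP livers, also with separate groups (log2 fold change 2.11 ± 0.28, adjusted p = 0.000298), and Vldlr, a receptor for triglyceride-rich particles, rose by 1.18 ± 0.36 on the log2 scale (adjusted p = 0.0276). The VLDL genes Apob and Mttp did not pass, at log2 fold changes of -0.32 ± 0.13 and 0.20 ± 0.11. When each library in turn was left out, 2 to 3 rose and 3 to 6 fell. For genes that fell the number was 3 without CON-GFP 1 or 8 or FPC-GFP 19. Vldlr did not pass without CON-GFP 1, 2 or 3 or FPC-GFP 16 or 19 (adjusted p from 0.0528 to 0.0771). Apob passed, at a log2 fold change of -0.38, without FPC-GFP 20 (adjusted p = 0.0495).

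Of 17 tested genes of fructose, glucose and gluconeogenic metabolism, 2 rose and 3 fell, against 12.9% and 10.9% of all genes. Khk, the ketohexokinase that commits fructose, was at 667 to 1025 CPM (median 877) in CON-GFP livers and 499 to 582 CPM (median 538) in FPC-GFP livers. Every FPC-GFP liver was below every CON-GFP liver (log2 fold change -0.65 ± 0.12, adjusted p = 0.00219). Tkfc, which acts later in the same route, was higher, at 198 to 531 CPM (median 401) in CON-GFP livers and 446 to 700.3 CPM (median 576) in FPC-GFP livers (log2 fold change 0.59 ± 0.20, adjusted p = 0.0458). Pck1, the first enzyme of gluconeogenesis, was at 936 to 3629 CPM (median 2463) in CON-GFP livers and 972 to 1654 CPM (median 1193) in FPC-GFP livers, with overlapping groups (log2 fold change -0.85 ± 0.26, adjusted p = 0.0304). Pklr, a glycolytic enzyme under ChREBP, did not pass (-0.30 ± 0.23). Within sheet numbers 55 to 63, 0 of the genes rose and 4 fell. Over fits that each lacked 1 library, 0 to 2 rose and 1 to 3 fell. As to members that rose, the number was 0 without CON-GFP 6 or FPC-GFP 12, 1 without CON-GFP 1, 2 or 3 or FPC-GFP 11, 13, 19 or 20. As to members that fell, the number was 1 without CON-GFP 1 or FPC-GFP 11 or 16. Tkfc did not pass without CON-GFP 1, 2, 3 or 6 or FPC-GFP 11, 12, 13, 19 or 20 (adjusted p from 0.0516 to 0.0944). Pck1 did not pass without CON-GFP 1, 2 or 3 or FPC-GFP 11, 12, 16 or 19 (adjusted p from 0.0523 to 0.0745).

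In sulfur amino acid metabolism 1 gene rose, namely Csad, the decarboxylase that makes hypotaurine, the precursor of taurine used to conjugate bile acids. The gene lies on chromosome 15 at 102176999-102204724 (GRCm38). It was at 33.2 to 104 CPM (median 64.7) in CON-GFP livers and 523 to 702 CPM (median 671) in FPC-GFP livers. The log2 fold change was 3.29 ± 0.22 (9.76-fold), and its adjusted p of 1.47e-06 compares with a smallest value of 5.02e-07 over all genes. Other genes of methionine and methyl-group metabolism moved the opposite way. Of 14 tested members of this list, 9 fell and 1 rose, and the list's median log2 fold change was -0.70. Bhmt, which remethylates homocysteine with betaine, was at 3109 to 6179 CPM (median 4800) in CON-GFP livers and 428 to 2195 CPM (median 682) in FPC-GFP livers. Liver 12 had the highest FPC-GFP value, still below all CON-GFP livers (log2 fold change -2.43 ± 0.37, adjusted p = 0.000659). Gnmt, the methyltransferase that uses up S-adenosylmethionine, was at 1045 to 1773 CPM (median 1417) in CON-GFP livers and 233 to 619 CPM (median 440.1) in FPC-GFP livers, with separate groups (log2 fold change -1.67 ± 0.20, adjusted p = 0.00015). Mat1a, which makes S-adenosylmethionine in hepatocytes, fell from 3958 ± 765 to 2206 ± 537 CPM (mean ± SD), also without overlap (log2 fold change -0.84 ± 0.18, adjusted p = 0.00497). With any single library left out, 9 members of the list fell each time.

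Bile acid synthesis showed no common direction. Of 16 tested genes 2 rose and 4 fell, against 12.9% and 10.9% of all genes. Akr1d1, the reductase of the steroid ring that both branches of synthesis use, was at 150.0 to 317 CPM (median 199.8) in CON-GFP livers and 27.9 to 99.7 CPM (median 51.6) in FPC-GFP livers. No FPC-GFP liver reached the CON-GFP range (log2 fold change -1.95 ± 0.27, adjusted p = 0.000349). Cyp7b1, of the alternative branch, was at 75.7 to 379 CPM (median 194) in CON-GFP livers and 54.7 to 185 CPM (median 80.3) in FPC-GFP livers, with overlap (log2 fold change -1.08 ± 0.38, adjusted p = 0.0495). Cyp39a1, an oxysterol hydroxylase, rose without overlap, from 10.9 ± 3.66 to 28.5 ± 14.2 CPM (log2 fold change 1.38 ± 0.28, adjusted p = 0.0035). Cyp7a1, the rate-limiting enzyme of the classical branch, was at 4.50 to 62.8 CPM (median 18.3) in CON-GFP livers and 14.8 to 104.9 CPM (median 60.1) in FPC-GFP livers and did not pass (log2 fold change 1.30 ± 0.53, adjusted p = 0.087), nor did Cyp8b1, which sets cholic acid (0.52 ± 0.22, adjusted p = 0.0955). With any single library left out, 1 to 4 rose and 3 to 5 fell. The number that rose was 1 without CON-GFP 2, 3, 6 or 7 or FPC-GFP 12, 13, 16 or 19, 4 without CON-GFP 8. Cyp7b1 did not pass without CON-GFP 1, 2, 3 or 7 or FPC-GFP 11, 12, 13, 16 or 19 (adjusted p from 0.0689 to 0.125). Cyp7a1 passed without CON-GFP 8 or FPC-GFP 11 (adjusted p from 0.0127 to 0.047). Cyp8b1 passed, at a log2 fold change of 0.69, without CON-GFP 8 (adjusted p = 0.0256).

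Among bile acid and organic anion transporters, 5 of 14 tested genes fell and 2 rose, and scaling by library size alone gave 3 and 3. Abcc4, an exporter on the blood side of hepatocytes that is known to rise in cholestasis, was at 1.33 to 2.54 CPM (median 2.02) in CON-GFP livers and 5.70 to 29.0 CPM (median 11.2) in FPC-GFP livers. All FPC-GFP livers were above all CON-GFP livers, with liver 19 highest (log2 fold change 2.83 ± 0.38, adjusted p = 0.000257). Uptake carriers fell: Slc10a1, which takes up conjugated bile acids, from 587 ± 64.95 to 366 ± 93.3 CPM (mean ± SD; log2 fold change -0.68 ± 0.16, adjusted p = 0.00866), and Slco1a4, of the organic anion transporters, with a log2 fold change of -1.65 ± 0.35 (adjusted p = 0.00461). Abcb11, the canalicular bile salt pump, did not pass (0.19 ± 0.16, adjusted p = 0.394). Leaving out single libraries in turn, 1 to 2 rose and 3 to 5 fell. Of its genes the number that rose was 1 without CON-GFP 2, 3 or 6 or FPC-GFP 11, 12, 16 or 19. Of its genes the number that fell was 3 without CON-GFP 6 or 7 or FPC-GFP 11, 12 or 19.

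Nitrogen metabolism and zonated hepatocyte genes were lower. Of 9 tested urea cycle and ammonia genes 6 fell and none rose. Ass1 and Asl, the successive enzymes that form and split argininosuccinate, were at 801 to 2447 CPM (median 1565) in CON-GFP livers and 553 to 837 CPM (median 748) in FPC-GFP livers and at 287 to 804 CPM (median 625) in CON-GFP livers and 176 to 355 CPM (median 283) in FPC-GFP livers. Their log2 fold changes were -1.14 ± 0.22 and -1.08 ± 0.23, each with overlapping groups (adjusted p = 0.00281 and 0.00486). Oat, a pericentral ornithine aminotransferase, was at 651 to 1011 CPM (median 766) in CON-GFP livers and 160.5 to 522 CPM (median 312) in FPC-GFP livers, and Slc25a15, the mitochondrial ornithine carrier, fell from 333 ± 68.7 to 159 ± 18.4 CPM; the groups were separate for both genes (log2 fold changes -1.35 ± 0.25 and -1.06 ± 0.14, adjusted p = 0.00217 and 0.000254). Cps1, the entry enzyme of the cycle, did not pass (-0.53 ± 0.26, adjusted p = 0.154). Cps1 passed, at a log2 fold change of -0.77, without FPC-GFP 11 (adjusted p = 0.0315).

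Markers of either end of the liver lobule fell. Of 11 tested periportal genes 6 fell and 1 rose, and of 12 tested pericentral genes 8 fell and none rose, so that genes of both ends were lower. The periportal list shares genes with the urea cycle list, and both had a median log2 fold change of -0.629. Their counts are therefore not separate results. Hal, the periportal histidine ammonia-lyase, and Sds, the periportal serine dehydratase, had log2 fold changes of -1.19 ± 0.17 and -1.35 ± 0.30 (adjusted p = 0.000462 and 0.00618). Cyp2e1, an abundant pericentral enzyme, was at 7853 to 10485 CPM (median 8740) in CON-GFP livers and 3202 to 6923 CPM (median 6489) in FPC-GFP livers, with separate groups (log2 fold change -0.65 ± 0.18, adjusted p = 0.0165). Glul, glutamine synthetase of the innermost pericentral layer, did not pass (-0.16 ± 0.12, adjusted p = 0.37), nor did periportal Cyp2f2 (0.06 ± 0.19, adjusted p = 0.845).

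Of 42 tested cytochrome P450 genes of families 1 to 3, 4 rose and 16 fell, and 7 fell under scaling by library size alone, 8 within sheet numbers 55 to 63 and 10 without FPC-GFP 19. Cyp1a2, a pericentral enzyme of aromatic amine oxidation, was at 199.8 to 409.9 CPM (median 295) in CON-GFP livers and 82.3 to 183 CPM (median 147) in FPC-GFP livers. CON-GFP and FPC-GFP ranges did not meet (log2 fold change -1.11 ± 0.20, adjusted p = 0.00177). Cyp2c54 was at 150.1 to 329 CPM (median 255) in CON-GFP livers and 9.19 to 107 CPM (median 37.8) in FPC-GFP livers, with separate groups (log2 fold change -2.35 ± 0.42, adjusted p = 0.00168). Cyp2a4, Cyp2c69 and Cyp2c40, each with close paralogs, moved the other way. Cyp2a4, on chromosome 7 at 26307169-26315088 (GRCm38) and female-biased in mouse liver, was at 0.456 to 7.00 CPM (median 1.37) in CON-GFP livers and 11.3 to 285 CPM (median 84.0) in FPC-GFP livers. Liver 20 had the lowest and liver 13 the highest FPC-GFP value (log2 fold change 5.84 ± 0.85, adjusted p = 0.000474). How the counting treated reads shared by such near-identical genes is not given, so single members of these families are uncertain. Cyp2b10 and Cyp3a11, the standard readouts of the receptors CAR and PXR, did not pass (0.43 ± 0.63 and 0.34 ± 0.24).

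Glutathione S-transferases, which conjugate electrophiles, rose in part. Of 20 tested genes 7 rose and 1 fell. Gstm1, the most abundant of those that rose, was at 542 to 1293 CPM (median 822) in CON-GFP livers and 2249 to 5112 CPM (median 3025) in FPC-GFP livers. The lowest FPC-GFP liver was above the highest CON-GFP liver (log2 fold change 1.93 ± 0.24, adjusted p = 0.000189). Gstm3 was at 9.42 to 22.3 CPM (median 13.9) in CON-GFP livers and 37.4 to 296 CPM (median 93.9) in FPC-GFP livers and Gsta1 at 2.86 to 7.83 CPM (median 4.82) in CON-GFP livers and 8.86 to 79.1 CPM (median 32.0) in FPC-GFP livers. Their groups were separate too, with liver 19 highest for both (log2 fold changes 3.03 ± 0.46 and 2.85 ± 0.39, adjusted p = 0.000637 and 0.000349).

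The tested cytosolic sulfotransferases, which add sulfate to bile acids, steroids and phenols, moved the other way. All 7 of them fell and were called, and their median log2 fold change was -1.69, while 14 of the 21 listed were not tested. The number that fell was 6 within sheet numbers 55 to 63 and 6 without CON-GFP 2 and FPC-GFP 11. Among all genes 10.9% fell and 2.44% were called lower. Sult2a8, the most abundant, was at 812 to 1983 CPM (median 989.6) in CON-GFP livers and 128 to 750.4 CPM (median 342) in FPC-GFP livers. The groups did not overlap (log2 fold change -1.66 ± 0.34, adjusted p = 0.00384). Sult1b1 was at 27.6 to 104.8 CPM (median 48.2) in CON-GFP livers and 6.96 to 16.4 CPM (median 14.7) in FPC-GFP livers, also without overlap (log2 fold change -1.99 ± 0.29, adjusted p = 0.000471). Sult2a7 had an adjusted p of 2.76e-05, at 4.09 to 11.3 CPM (median 8.13) in CON-GFP livers and 0.426 to 1.06 CPM (median 0.731) in FPC-GFP livers (log2 fold change -3.45 ± 0.30).

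**Figure D4:**
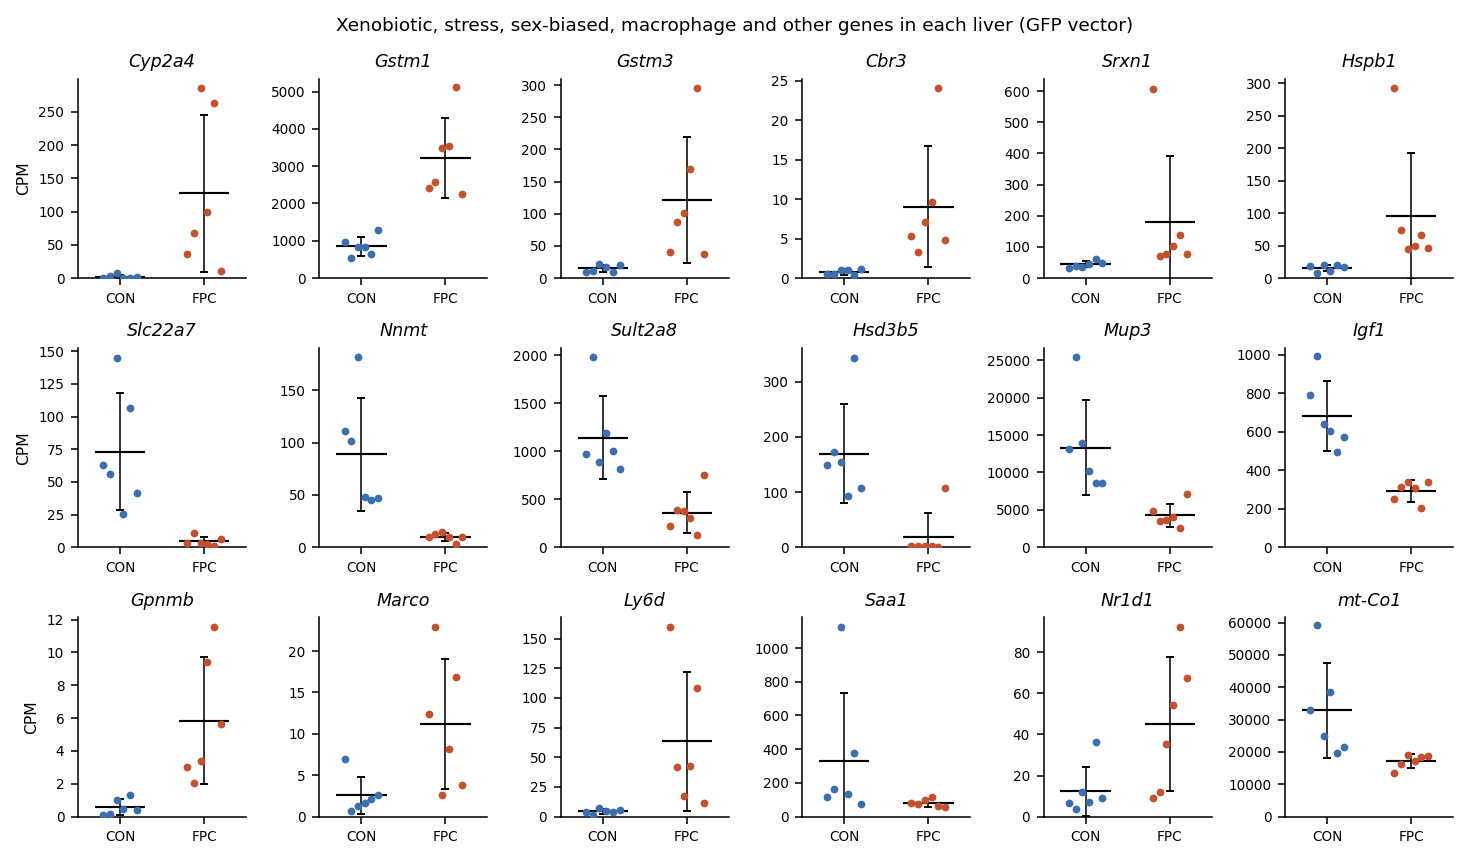
Levels in CPM, on axes from 0, of 18 genes in each of the 6 CON-GFP (blue) and 6 FPC-GFP (red) livers; horizontal lines are means and bars are SD. The groups overlap for Hsd3b5, Marco, Saa1 and Nr1d1 and are separate for the other genes. Srxn1 and Hspb1 show 1 FPC-GFP liver, number 11, far above the other FPC-GFP livers.

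Genes with sex-biased expression in mouse liver, set by the pulses of growth hormone in males, changed in some members. Of 16 tested male-biased genes 6 fell and 1 rose. Hsd3b5, a male-specific steroid dehydrogenase, was at 92.3 to 343 CPM (median 152) in CON-GFP livers and 0.487 to 107 CPM (median 2.64) in FPC-GFP livers. Liver 20, at 107 CPM, lay within the CON-GFP range, and the other FPC-GFP livers were below it (log2 fold change -3.14 ± 1.04, adjusted p = 0.0401). Selenbp2, a selenium-binding protein, fell from widely spread CON-GFP levels of 20.8 to 694 CPM (median 180.3) (log2 fold change -2.37 ± 0.71, adjusted p = 0.0255). When each library in turn was left out, 1 rose and 1 to 9 fell. For genes that fell the number was 1 without FPC-GFP 19, 2 without CON-GFP 1 or 3 or FPC-GFP 13 or 16, 3 without CON-GFP 2. Of the 18 female-biased genes 10 had enough counts to be tested, 3 rose (Cyp2a4, Cyp2c69 and Cyp2c40) and none fell. These 3 are also among the risen cytochrome P450 genes described above, so they are not a separate result. The uncertainty over reads shared with close paralogs holds for them here too. Hsd3b5 did not pass without CON-GFP 1, 2, 3, 6 or 7 or FPC-GFP 11, 12, 13, 16 or 19 (adjusted p from 0.051 to 0.0719). Selenbp2 did not pass without CON-GFP 3 or FPC-GFP 13, 16 or 19 (adjusted p from 0.0513 to 0.0728).

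Mup3, a major urinary protein and among the most abundant liver transcripts of male mice, was at 8530 to 25456 CPM (median 11687) in CON-GFP livers and 2543 to 7064 CPM (median 3839) in FPC-GFP livers. The groups were separate, and liver 2 of CON-GFP and liver 20 of FPC-GFP were the highest of their groups (log2 fold change -1.64 ± 0.29, adjusted p = 0.00152). Of 34 tested members of this family of near-identical genes 3 fell, against 10.9% of all genes. Over fits that each lacked 1 library, 0 to 1 rose and 3 to 12 fell. As to members that fell, the number was 5 without CON-GFP 8, 12 without FPC-GFP 20. Igf1, the growth hormone target that the liver secretes, was at 496 to 994 CPM (median 621) in CON-GFP livers and 201 to 340.1 CPM (median 312) in FPC-GFP livers, and Ghr, the growth hormone receptor, at 563 to 1208 CPM (median 626) in CON-GFP livers and 244 to 458 CPM (median 344) in FPC-GFP livers. Neither had overlapping groups (log2 fold changes -1.22 ± 0.18 and -1.06 ± 0.20, adjusted p = 0.000471 and 0.00232). Socs2, a direct STAT5 target, did not pass (-0.02 ± 0.34). Of the 13 tested genes of this axis 4 fell and none rose.

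Nuclear receptors and insulin receptor pathway genes moved little. Of 26 tested nuclear receptors 5 fell and 1 rose, and under scaling by library size alone 3 fell and 4 rose. Nr1i3, the xenobiotic receptor CAR, was at 349.7 to 683 CPM (median 479.5) in CON-GFP livers and 214 to 401 CPM (median 316) in FPC-GFP livers (log2 fold change -0.70 ± 0.19, adjusted p = 0.0144), and Nr1h4, the bile acid receptor FXR, was lower by a small margin without overlap, from 176 ± 20.6 to 139 ± 14.7 CPM (-0.34 ± 0.11, adjusted p = 0.0354). Insr, the insulin receptor, had a log2 fold change of -0.34 ± 0.11 (adjusted p = 0.0394), and Irs2, a main docking protein of insulin signalling in liver, did not pass (-0.07 ± 0.33). Hnf4a, the factor that holds hepatocyte identity, did not pass (-0.15 ± 0.18, adjusted p = 0.55). With any single library left out, 0 to 3 rose and 3 to 9 fell. The number that fell was 3 without FPC-GFP 11 or 19, 9 without CON-GFP 8. Nr1h4 did not pass without CON-GFP 6, 7 or 8 or FPC-GFP 11, 12 or 19 (adjusted p from 0.0511 to 0.0832). Insr did not pass without CON-GFP 1, 2, 3 or 6 or FPC-GFP 11, 12, 16 or 19 (adjusted p from 0.0504 to 0.0929).

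Secreted plasma proteins of hepatocytes were lower in all 3 lists. Of 21 tested acute phase genes 7 fell and none rose, of 23 complement genes 11 fell and 1 rose, and of 19 coagulation and fibrinolysis genes 11 fell and none rose. Under scaling by library size alone 6, 7 and 6 fell, and within sheet numbers 55 to 63 3 acute phase genes did. Saa1, the inducible serum amyloid, was at 74.5 to 1122 CPM (median 149.7) in CON-GFP livers and 58.2 to 117 CPM (median 78.8) in FPC-GFP livers. Liver 3 of CON-GFP, at 1122 CPM, lay far above the other CON-GFP livers, and the groups overlapped (log2 fold change -2.01 ± 0.55, adjusted p = 0.0162). Saa4, the constitutive serum amyloid, was at 387 to 1051 CPM (median 589.9) in CON-GFP livers and 151 to 280.5 CPM (median 226) in FPC-GFP livers, with separate groups (log2 fold change -1.51 ± 0.24, adjusted p = 0.000877). F11, coagulation factor XI, was at 46.9 to 81.2 CPM (median 66.2) in CON-GFP livers and 14.5 to 26.5 CPM (median 21.1) in FPC-GFP livers, also without overlap (log2 fold change -1.61 ± 0.18, adjusted p = 0.000119). C9, a pore-forming complement protein, fell from 468 ± 112 to 254 ± 35.0 CPM (-0.88 ± 0.16) and C8b, another part of that complex, had a log2 fold change of -1.83 ± 0.38 (adjusted p = 0.00194 and 0.00391). Cfp, properdin, a product mainly of leukocytes, was the complement gene that rose (1.14 ± 0.19, adjusted p = 0.00122). C3 did not pass (-0.26 ± 0.17, adjusted p = 0.263).

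Most tested macrophage genes rose. Of 12 tested Kupffer cell markers 10 rose, all called, and of 12 genes of lipid-associated macrophages, the cells that gather at fat-laden tissue, 11 rose. Over all tested genes 12.9% rose and 4.76% were called higher. In whole-liver RNA, more cells of a type and more RNA per cell cannot be told apart. Gpnmb, a glycoprotein of lipid-laden macrophages, was at 0.0834 to 1.34 CPM (median 0.436) in CON-GFP livers and 2.03 to 11.6 CPM (median 4.52) in FPC-GFP livers. The groups were separate, with liver 19 highest (log2 fold change 3.25 ± 0.55, adjusted p = 0.00123). Trem2, the lipid-sensing receptor of these cells, was at 0.459 to 1.854 CPM (median 0.927) in CON-GFP livers and 1.09 to 5.14 CPM (median 2.39) in FPC-GFP livers, with overlap (log2 fold change 1.43 ± 0.39, adjusted p = 0.0169). Marco, a scavenger receptor of Kupffer cells, was at 0.665 to 6.96 CPM (median 1.89) in CON-GFP livers and 2.64 to 22.9 CPM (median 10.3) in FPC-GFP livers, and Clec4f, a Kupffer cell lectin, at 44.0 to 91.8 CPM (median 73.3) in CON-GFP livers and 124 to 168 CPM (median 136) in FPC-GFP livers. Marco overlapped between the groups and Clec4f did not (log2 fold changes 2.11 ± 0.54 and 1.01 ± 0.17, adjusted p = 0.0128 and 0.00113). Timd4, carried by Kupffer cells of embryonic origin, was higher as well, from 3.22 ± 0.714 to 6.96 ± 1.87 CPM (1.11 ± 0.20, adjusted p = 0.0017).

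Of 12 tested genes of monocytes and recruited macrophages 7 rose, all called, and none fell (median log2 fold change 1.37). The share called higher over all genes was 4.76%. Ly6c2 and Ccr2, which define blood monocytes that enter tissue, did not pass, at 0.257 to 1.07 CPM (median 0.573) in CON-GFP livers and 0.437 to 0.733 CPM (median 0.550) in FPC-GFP livers and at 0.709 to 3.19 CPM (median 2.65) in CON-GFP livers and 1.71 to 4.18 CPM (median 2.38) in FPC-GFP livers (log2 fold changes -0.12 ± 0.32 and 0.22 ± 0.33). Of 18 tested chemokines and receptors 7 rose and none fell, among them Ccl2, the ligand of that receptor, at 0.465 to 1.31 CPM (median 0.807) in CON-GFP livers and 1.61 to 5.76 CPM (median 3.52) in FPC-GFP livers (log2 fold change 2.07 ± 0.32, adjusted p = 0.000657). No tested B cell (7), NK cell (2), neutrophil (3), bile duct (8) or red blood cell (5) marker passed in edgeR's test, and 1 of 6 T cell markers, Cd4, fell. Too few counts to be tested were found for 6 of 8 NK cell, 6 of 9 neutrophil and 3 of 9 T cell markers. All markers of these lists summed to at most 4.96, 5.93 and 6.56 CPM in any liver. Whether these cells changed therefore cannot be read from these counts.

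Signalling genes that phagocytes share rose with few exceptions. Of 14 tested genes of Fc gamma receptors and ITAM signalling 13 rose, and of 6 genes of the phagocyte NADPH oxidase, which makes superoxide, all 6 rose, and at least 12 and 5 did with any single library left out. Cybb, the catalytic subunit of the oxidase, was at 4.04 to 9.14 CPM (median 6.07) in CON-GFP livers and 12.8 to 24.7 CPM (median 16.5) in FPC-GFP livers, with separate groups (log2 fold change 1.43 ± 0.20, adjusted p = 0.000436). The exception in the first list was Fcgr2b, the inhibitory Fc receptor, which sinusoidal endothelium also carries, at 35.3 to 68.6 CPM (median 49.7) in CON-GFP livers and 41.3 to 64.4 CPM (median 53.0) in FPC-GFP livers (log2 fold change 0.05 ± 0.16, adjusted p = 0.825). Of 13 tested MHC class II and costimulation genes 8 rose, and within sheet numbers 55 to 63 the number was 4. Cd74, the invariant chain, was at 23.8 to 78.6 CPM (median 44.0) in CON-GFP livers and 68.5 to 145 CPM (median 115) in FPC-GFP livers (log2 fold change 1.32 ± 0.25, adjusted p = 0.00214). Of 13 toll-like receptors 5 rose. Tlr12 was at 6.38 to 19.1 CPM (median 16.2) in CON-GFP livers and 19.2 to 39.4 CPM (median 29.9) in FPC-GFP livers, with separate groups (log2 fold change 0.98 ± 0.25, adjusted p = 0.0124), while Tlr4 and Tlr2, which sense bacterial surface lipids, did not pass (0.61 ± 0.23 and 0.78 ± 0.27). Tlr4 passed, at a log2 fold change of 0.72, without CON-GFP 6 (adjusted p = 0.047). Tlr2 passed without CON-GFP 3 or 6 or FPC-GFP 20 (adjusted p from 0.0383 to 0.0481).

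The interleukin-1 and inflammasome genes moved in both directions, with 4 of 16 higher and 4 lower. Il1b, the cytokine that macrophages release, was at 0.709 to 3.33 CPM (median 1.77) in CON-GFP livers and 1.92 to 10.04 CPM (median 4.40) in FPC-GFP livers (log2 fold change 1.28 ± 0.39, adjusted p = 0.0275), Il1rn, its secreted antagonist, rose by 0.92 ± 0.20 on the log2 scale (adjusted p = 0.00468), and Nlrp3, an inflammasome sensor, by 1.30 ± 0.34 (adjusted p = 0.0128). Il1r1, the signalling receptor, was at 30.7 to 196 CPM (median 82.7) in CON-GFP livers and 23.8 to 78.7 CPM (median 28.7) in FPC-GFP livers with overlap (log2 fold change -1.42 ± 0.49, adjusted p = 0.0454), and Nlrp6, an epithelial sensor, was at 178 to 262 CPM (median 205) in CON-GFP livers and 67.2 to 154 CPM (median 119) in FPC-GFP livers, with separate groups (-0.90 ± 0.17, adjusted p = 0.00253). Of 27 interferon-stimulated genes 6 rose and 1 fell; Oas1a, a sensor enzyme of viral RNA, rose by 1.13 ± 0.20 (adjusted p = 0.00146), and Isg15 and Ifit1 did not pass (-0.06 ± 0.20 and -0.26 ± 0.17). Il1b did not pass without CON-GFP 1 or 2 or FPC-GFP 19 (adjusted p from 0.05 to 0.0785). Il1r1 did not pass without CON-GFP 1, 2 or 3 or FPC-GFP 12, 13, 16, 19 or 20 (adjusted p from 0.0601 to 0.109).

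Some collagen and matrix genes rose. Of 26 tested collagen genes 12 rose and 2 fell, and of 27 other matrix genes 10 rose and none fell. The summed level of the collagens was 0.107% of all CPM in CON-GFP and 0.0989% in FPC-GFP, and that of the other matrix genes 0.135% and 0.136%. The collagen sum, 764 to 1349 CPM in CON-GFP and 916 to 1129 CPM in FPC-GFP livers, rests mostly on Col18a1. Its mean over the 12 livers was 657 CPM, and it did not pass (log2 fold change -0.27, adjusted p = 0.237). The median log2 fold change of the collagen list was 0.657. Col1a1, a fibrillar collagen chain named after its values were seen, rose by 1.84 on the log2 scale (adjusted p = 0.0002). Col4a1, a chain of basement membrane collagen, was at 14.9 to 33.2 CPM (median 23.1) in CON-GFP livers and 30.1 to 107 CPM (median 44.8) in FPC-GFP livers, with overlap and liver 11 highest (log2 fold change 1.19 ± 0.27, adjusted p = 0.00666). Col27a1, a fibrillar collagen, was lower, at 63.7 to 186 CPM (median 111) in CON-GFP livers and 23.2 to 85.7 CPM (median 38.0) in FPC-GFP livers (log2 fold change -1.45 ± 0.30, adjusted p = 0.00405). Mmp12, the macrophage elastase, rose by 2.08 ± 0.48 on the log2 scale (adjusted p = 0.00678). Of 14 stellate cell markers 3 rose: Acta2, the actin of activated stellate cells, was at 0.0665 to 8.59 CPM (median 1.70) in CON-GFP livers and 3.59 to 11.0 CPM (median 5.06) in FPC-GFP livers and did not pass (1.18 ± 0.55, adjusted p = 0.131), while Pdgfrb, their growth factor receptor, rose by 0.81 ± 0.19 (adjusted p = 0.00692). Tgfb1, the ligand that activates these cells, was at 1.33 to 6.79 CPM (median 3.88) in CON-GFP livers and 7.97 to 10.7 CPM (median 9.38) in FPC-GFP livers, with separate groups (log2 fold change 1.13 ± 0.27, adjusted p = 0.00898). Of 16 genes of this pathway 6 rose and none fell, and within sheet numbers 55 to 63 3 rose. Acta2 passed, at a log2 fold change of 1.97, without CON-GFP 1 (adjusted p = 0.0104).

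Of 16 tested endothelial markers 7 rose. Cdh5, the cadherin of all endothelium, was at 9.04 to 15.3 CPM (median 11.0) in CON-GFP livers and 21.8 to 28.3 CPM (median 25.6) in FPC-GFP livers, and Vwf, carried by vessels larger than sinusoids, at 1.86 to 4.59 CPM (median 4.15) in CON-GFP livers and 6.74 to 8.46 CPM (median 7.30) in FPC-GFP livers. Groups were separate for both (log2 fold changes 1.13 ± 0.13 and 0.97 ± 0.18, adjusted p = 0.000158 and 0.00222). The sinusoidal markers Stab2 and Clec4g did not pass (-0.08 ± 0.12 and 0.20 ± 0.16).

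**Figure D5:**
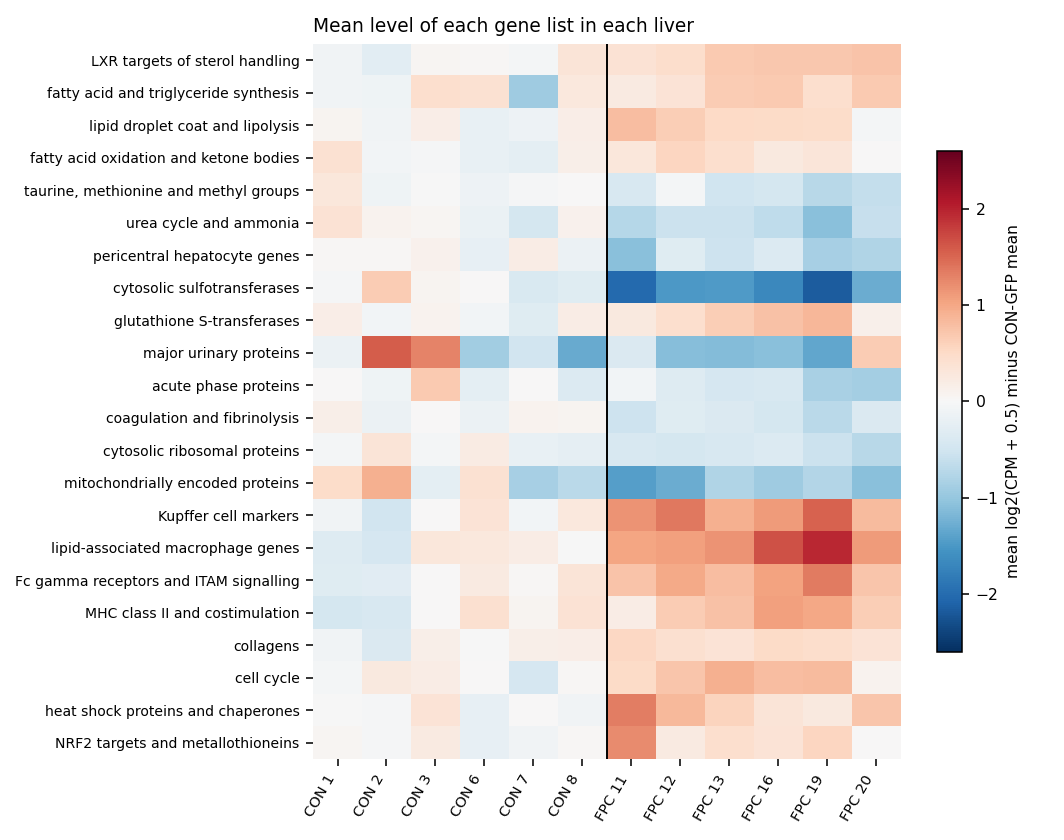
Colour gives the mean of log2(CPM + 0.5) over the tested genes of each list in each of the 12 livers, minus the mean of the 6 CON-GFP livers, with red above and blue below it; columns are livers by mouse number. The macrophage lists are red in all 6 FPC-GFP livers, the sulfotransferase list is blue in all 6, and the major urinary protein list varies among livers of both groups.

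Ribosomal protein genes were lower by a small and even amount. Of 77 tested cytosolic ribosomal protein genes 62 fell and none rose, the median log2 fold change was -0.49, and none was called. Together they took 2.18% of CPM in CON-GFP and 1.52% in FPC-GFP. Rps27a was at 189.5 to 401 CPM (median 262) in CON-GFP livers and 123.1 to 179.6 CPM (median 145) in FPC-GFP livers, with separate groups (log2 fold change -0.95 ± 0.18, adjusted p = 0.00257). The number that fell was 27 under scaling by library size alone, 33 within sheet numbers 55 to 63 and 3 when all 18 libraries of the series shared 1 estimate of the spread, while the median of the list lay between -0.48 and -0.29. Translation factors moved little, with 4 of 58 higher and 8 lower (14 and 2 by library size alone). Eef1a1, the main elongation factor, fell from 5023 ± 610.3 to 3711 ± 257 CPM (log2 fold change -0.44 ± 0.11, adjusted p = 0.0137). Leaving out single libraries in turn, 2 to 6 rose and 5 to 9 fell. Of its genes the number that rose was 2 without CON-GFP 1, 2 or 6 or FPC-GFP 11 or 20. Of its genes the number that fell was 5 without FPC-GFP 19.

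Genes of the mitochondrial respiratory chain fell from both genomes. Of 78 tested nuclear genes of complexes I to V 40 fell and none rose (median -0.37), and of 13 mitochondrially encoded protein genes 9 fell (median -0.985). The nuclear count was 19 by library size alone, 20 within sheet numbers 55 to 63 and 2 with all 18 libraries in the fit. The count of mitochondrially encoded genes was 9, 6 and 5 in these settings, with medians of -0.756, -0.636 and -0.973. Without the livers that lay farthest out on the principal components it was 7, with a median of -0.672. Cox7b, a small subunit of complex IV, was at 259 to 482 CPM (median 308) in CON-GFP livers and 156 to 242 CPM (median 202) in FPC-GFP livers, with separate groups (log2 fold change -0.81 ± 0.16, adjusted p = 0.00344). Atp5a1 and Atp5b, core subunits of the ATP synthase, did not pass (-0.10 ± 0.11 and 0.09 ± 0.12). mt-Co1, a core subunit of complex IV encoded in mitochondria, was at 19804 to 59280 CPM (median 28947) in CON-GFP livers and 13321 to 18988 CPM (median 17868) in FPC-GFP livers. Liver 2 of CON-GFP was the highest of all, and the groups were separate (log2 fold change -0.93 ± 0.23, adjusted p = 0.0112). Mitochondrial ribosomal protein genes gave 15 lower of 76 and none higher, and 4 lower and 5 higher by library size alone.

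Genes of the oxidative stress response rose. Of 14 tested NRF2 targets and metallothioneins 10 rose and none fell, and the number that rose was 6 within sheet numbers 55 to 63 and 6 without FPC-GFP 19. NRF2 is the transcription factor that oxidants release from KEAP1 and that binds the antioxidant response element. Cbr3, a carbonyl reductase, was at 0.428 to 1.15 CPM (median 0.747) in CON-GFP livers and 3.35 to 24.1 CPM (median 6.23) in FPC-GFP livers. The groups were separate, with liver 19 highest (log2 fold change 3.55 ± 0.48, adjusted p = 0.000278). Srxn1, sulfiredoxin, which repairs peroxiredoxins, was at 33.5 to 60.5 CPM (median 43.0) in CON-GFP livers and 71.9 to 607 CPM (median 90.6) in FPC-GFP livers. Liver 11 held 607 CPM, far above the other FPC-GFP livers, and these were still above all CON-GFP livers (log2 fold change 2.02 ± 0.48, adjusted p = 0.00865). Nqo1, a quinone reductase, rose by 0.80 ± 0.22 on the log2 scale, Hmox1, heme oxygenase, by 0.79 ± 0.13 and G6pdx, the X-linked enzyme that supplies NADPH, by 0.84 ± 0.25 (adjusted p = 0.0161, 0.00122 and 0.0242). Mt1, a metallothionein, did not pass, and its FPC-GFP levels of 6.69 to 432 CPM (median 15.9) again had liver 11 far above the others (log2 fold change -0.35 ± 0.92). G6pdx did not pass without FPC-GFP 16 or 19 (adjusted p from 0.0508 to 0.0521). Mt1 passed, at a log2 fold change of -2.79, without FPC-GFP 11 (adjusted p = 0.0048).

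The promoters of 3 risen genes of this list are shown because each holds the core of the antioxidant response element, TGACNNNGC, searched on both strands from 250 bases before to 50 bases after the gene start in RefSeq (GRCm38.p6). Capitals mark the match. The motif was chosen after the values of these genes were seen, and a match is a description, not a binding site. In Srxn1 (chr2:152105274-152105573, plus strand) the match begins 28 bases after the start. In G6pdx (chrX:74428831-74429130, minus strand) and Txnrd1 (chr10:82858956-82859255, plus strand) it begins 57 and 92 bases before it. The table holds 3 promoters for Txnrd1, of which the one with the match is shown. All 3 matches read in the direction opposite to the gene.
Srxn1: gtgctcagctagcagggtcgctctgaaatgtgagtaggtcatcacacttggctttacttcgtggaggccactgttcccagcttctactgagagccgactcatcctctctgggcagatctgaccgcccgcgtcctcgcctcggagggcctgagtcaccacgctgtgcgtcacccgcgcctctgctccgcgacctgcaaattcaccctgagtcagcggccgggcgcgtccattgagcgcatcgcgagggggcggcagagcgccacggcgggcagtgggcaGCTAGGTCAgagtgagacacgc
G6pdx: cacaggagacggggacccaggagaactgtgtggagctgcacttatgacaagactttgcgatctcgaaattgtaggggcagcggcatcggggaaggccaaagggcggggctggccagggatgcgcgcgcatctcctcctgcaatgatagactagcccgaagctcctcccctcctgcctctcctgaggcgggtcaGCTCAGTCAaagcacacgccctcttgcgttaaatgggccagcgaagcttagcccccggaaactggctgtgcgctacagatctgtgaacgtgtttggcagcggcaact
Txnrd1: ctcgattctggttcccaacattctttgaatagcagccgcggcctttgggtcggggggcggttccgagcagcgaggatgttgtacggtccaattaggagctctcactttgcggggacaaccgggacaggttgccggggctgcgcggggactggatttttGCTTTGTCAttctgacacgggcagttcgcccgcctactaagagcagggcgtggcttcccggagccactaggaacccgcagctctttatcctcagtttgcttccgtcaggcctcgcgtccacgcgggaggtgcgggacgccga
Of the list's members 11 were matched to the promoter table, and 6 of them hold the core, against 14% of all 27025 genes in the table and 16.8% of the tested genes there. A gene counted as holding it if any of its promoters did. The list was chosen as targets of NRF2, which binds this element, so the comparison with all genes is no test. It was found for 4 of 7 risen members and for 2 of 4 others. The sterol regulatory element TCACNCCAC, searched in the same way, was found in the promoter of 1 of 17 matched cholesterol genes, Hmgcs1, which did not rise, and in 1.44% of all genes. The heat shock element, also chosen after values were seen, was GAA, TTC and GAA in this order with 2 bases between each. Searched on both strands, it was found in 1 of 5 matched chaperone genes that rose, in 3 of 4 that did not, and in 0.662% of all genes.

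Of 13 tested heat shock proteins and chaperones 7 rose and none fell. Hspb1, a small chaperone, was at 7.51 to 20.5 CPM (median 17.6) in CON-GFP livers and 45.4 to 292 CPM (median 58.2) in FPC-GFP livers. All FPC-GFP livers exceeded all CON-GFP livers, with liver 11 highest (log2 fold change 2.62 ± 0.46, adjusted p = 0.00151). Hspa1b, the inducible chaperone of the same response, was at 1.99 to 6.81 CPM (median 3.12) in CON-GFP livers and 6.24 to 30.7 CPM (median 14.8) in FPC-GFP livers, with overlap (log2 fold change 2.02 ± 0.37, adjusted p = 0.0019), and Hspa8, its constitutive relative, did not pass (0.04 ± 0.16). Within sheet numbers 55 to 63 2 of these genes rose, and without CON-GFP 2 and FPC-GFP 11 3 did. Of 38 tested proteasome genes 7 rose and none fell, and under scaling by library size alone 17 rose. When each library in turn was left out, 4 to 11 rose and 0 to 1 fell. For genes that rose the number was 4 without CON-GFP 6 or FPC-GFP 11, 11 without CON-GFP 7. In the list of endoplasmic reticulum stress and the integrated stress response 2 of 19 rose and 1 fell: Asns, asparagine synthetase, a target of ATF4, was at 0.266 to 2.88 CPM (median 0.582) in CON-GFP livers and 2.11 to 20.2 CPM (median 8.22) in FPC-GFP livers (log2 fold change 3.05 ± 0.66, adjusted p = 0.00473), Atf3 rose by 1.14 ± 0.25 (adjusted p = 0.00565), and Herpud1, of degradation at the endoplasmic reticulum, fell (log2 fold change -0.55 ± 0.17, adjusted p = 0.0277). Hspa5 and Ddit3, the usual readouts of the unfolded protein response, did not pass (0.21 ± 0.25 and 0.32 ± 0.26). Herpud1 did not pass without CON-GFP 1 or FPC-GFP 12, 16 or 19 (adjusted p from 0.0575 to 0.0646).

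Lysosomal genes moved both ways, with 7 of 28 higher and 5 lower, and 13 and 1 by library size alone. Over fits that each lacked 1 library, 4 to 9 rose and 2 to 5 fell. As to members that rose, the number was 4 without FPC-GFP 12 or 13. As to members that fell, the number was 2 without CON-GFP 8 or FPC-GFP 13, 3 without CON-GFP 1, 2 or 6 or FPC-GFP 11, 12, 19 or 20. Lipa, which encodes the lysosomal acid lipase that hydrolyses cholesteryl esters and triglyceride, was at 206 to 307 CPM (median 245) in CON-GFP livers and 243 to 407 CPM (median 346) in FPC-GFP livers under the GFP vector of both groups (log2 fold change 0.46 ± 0.14, adjusted p = 0.0244). The groups overlapped for Lipa and were separate for Ctss, a protease of antigen-presenting cells, at 15.3 to 29.3 CPM (median 20.5) in CON-GFP livers and 38.8 to 65.5 CPM (median 50.3) in FPC-GFP livers (log2 fold change 1.27 ± 0.16, adjusted p = 0.0002). Sqstm1, the autophagy receptor p62 and an NRF2 target, rose by 0.71 ± 0.17 on the log2 scale (adjusted p = 0.00898), and Atg5, of autophagosome formation, fell without overlap (log2 fold change -0.54 ± 0.11, adjusted p = 0.00393). Lipa did not pass without FPC-GFP 11, 12 or 13 (adjusted p from 0.0506 to 0.0528).

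Cell cycle genes rose in 12 of 23 tested members, of which 11 were called, and none fell. For all genes the shares were 12.9% risen and 4.76% called higher. Mki67, carried by cycling cells, was at 0.742 to 2.33 CPM (median 1.98) in CON-GFP livers and 3.11 to 7.45 CPM (median 6.01) in FPC-GFP livers, and Ccnd1, the cyclin of entry into the cycle, at 10.1 to 23.1 CPM (median 16.4) in CON-GFP livers and 29.8 to 64.2 CPM (median 57.6) in FPC-GFP livers. The groups were separate for both (log2 fold changes 1.67 ± 0.28 and 1.63 ± 0.25, adjusted p = 0.00122 and 0.000659). Mcm5, of the replicative helicase, was at 1.14 to 3.44 CPM (median 1.5) in CON-GFP livers and 2.09 to 14.1 CPM (median 4.15) in FPC-GFP livers, with overlap (log2 fold change 1.68 ± 0.44, adjusted p = 0.013). Cdkn1a, the inhibitor p21, spread widely in both groups, at 26.3 to 310.4 CPM (median 61.3) in CON-GFP livers and 4.56 to 118 CPM (median 24.2) in FPC-GFP livers, and did not pass (-1.31 ± 0.70, adjusted p = 0.181). Cdkn1a passed, at a log2 fold change of -2.04, without FPC-GFP 11 (adjusted p = 0.0443).

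Some calcium-binding and adhesion genes rose. Of 9 tested S100 genes, which encode calcium-binding proteins, 2 rose, S100a11 and S100a6, and 2 fell, S100a1 and S100a13. S100a11 was at 4.19 to 11.3 CPM (median 7.78) in CON-GFP livers and 25.3 to 72.96 CPM (median 44.7) in FPC-GFP livers, with separate groups (log2 fold change 2.59 ± 0.26, adjusted p = 5.75e-05). Anxa2, a membrane-binding annexin, was at 20.6 to 41.8 CPM (median 26.2) in CON-GFP livers and 27.0 to 296 CPM (median 96.9) in FPC-GFP livers, with overlap and liver 11 highest (log2 fold change 2.06 ± 0.42, adjusted p = 0.00352), and Anxa5 rose by 1.47 ± 0.22 on the log2 scale without overlap (adjusted p = 0.00065). Of 11 annexins 4 rose and 1 fell, and of 21 integrins 8 rose and none fell, with 4 risen integrins without FPC-GFP 19. Itgb2, the beta chain of leukocyte integrins, was at 2.46 to 5.27 CPM (median 4.51) in CON-GFP livers and 8.42 to 16.9 CPM (median 11.9) in FPC-GFP livers (log2 fold change 1.46 ± 0.20, adjusted p = 0.000325), while Itgb1, which most cells carry, did not pass (0.02 ± 0.09).

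Time of collection is not given in the sources used here, so clock genes are described. Of 19 tested genes, 1, Nr1d1, rose and 1 fell. Nr1d1, the repressor REV-ERB alpha, was at 3.66 to 36.1 CPM (median 8.00) in CON-GFP livers and 8.86 to 92.4 CPM (median 44.8) in FPC-GFP livers (log2 fold change 1.84 ± 0.59, adjusted p = 0.0335). Dbp, which peaks in the day phase, was at 2.42 to 25.9 CPM (median 15.9) in CON-GFP livers and 1.78 to 104.8 CPM (median 62.8) in FPC-GFP livers, and Arntl, which cycles in antiphase, at 8.14 to 23.1 CPM (median 13.9) in CON-GFP livers and 1.54 to 20.1 CPM (median 5.77) in FPC-GFP livers. Neither passed (1.94 ± 0.74 and -0.64 ± 0.52, adjusted p = 0.0689 and 0.383), and the spread within groups was wide for all 3 genes. Within sheet numbers 55 to 63 Nr1d1 did not pass. The part of clock phase in other results was not tested. Nr1d1 did not pass without CON-GFP 1, 2, 3, 6 or 8 or FPC-GFP 16, 19 or 20 (adjusted p from 0.0561 to 0.0855). Dbp passed without FPC-GFP 11 or 12 (adjusted p from 0.0189 to 0.0377).

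Several of the largest changes lay outside these lists. Among the 15 largest increases with separate groups and a mean of at least 1 CPM were Fam83a, a signalling scaffold of epithelia, at 0.375 to 2.12 CPM (median 0.727) in CON-GFP livers and 7.26 to 51.1 CPM (median 19.6) in FPC-GFP livers, and Ly6d, a surface protein of squamous and lymphoid cells, at 1.66 to 7.45 CPM (median 4.24) in CON-GFP livers and 11.7 to 160.0 CPM (median 42.0) in FPC-GFP livers. Their log2 fold changes were 4.56 ± 0.48 and 3.84 ± 0.58, and liver 11 was highest for both (adjusted p = 8.6e-05 and 0.000616). Nrg1, a ligand of ERBB receptors, was at 0.266 to 0.875 CPM (median 0.348) in CON-GFP livers and 1.20 to 13.2 CPM (median 2.65) in FPC-GFP livers, and Peg10, an imprinted gene of retroviral origin, at 0.151 to 0.477 CPM (median 0.413) in CON-GFP livers and 1.22 to 12.7 CPM (median 3.20) in FPC-GFP livers. Both came from below 1 CPM in every CON-GFP liver (log2 fold changes 3.36 ± 0.58 and 3.54 ± 0.53, adjusted p = 0.00134 and 0.000566). Dhrs9, a short-chain dehydrogenase that oxidises retinol and steroids, and Adamts15, a matrix protease, rose by 3.16 ± 0.59 and 2.96 ± 0.30 on the log2 scale (adjusted p = 0.00222 and 5.75e-05).

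Of the 15 largest decreases chosen by the same rule, the protein-coding genes with the highest mean CPM were Slc22a7 and Nnmt. Slc22a7, the organic anion transporter OAT2, on chromosome 17 at 46432183-46438457 (GRCm38), was at 25.5 to 145 CPM (median 59.4) in CON-GFP livers and 1.00 to 10.7 CPM (median 3.13) in FPC-GFP livers. The lowest CON-GFP liver was above the highest FPC-GFP liver (log2 fold change -4.02 ± 0.53, 16.3-fold, adjusted p = 0.000254). Nnmt, nicotinamide N-methyltransferase, another consumer of S-adenosylmethionine, was at 45.0 to 181 CPM (median 74.6) in CON-GFP livers and 3.53 to 14.5 CPM (median 9.93) in FPC-GFP livers. Its groups were separate by a wide margin (log2 fold change -3.15 ± 0.39, 8.89-fold, adjusted p = 0.000198). Zap70, known as a kinase of the T cell receptor, was at 12.9 to 15.4 CPM (median 14.5) in CON-GFP livers and 0.639 to 2.92 CPM (median 1.69) in FPC-GFP livers, very even within CON-GFP (log2 fold change -3.13 ± 0.29, adjusted p = 4.65e-05). Cd3e, which defines T cells, was at 0.0757 to 0.799 CPM (median 0.397) in those CON-GFP livers and did not pass (-0.45 ± 0.52, adjusted p = 0.544). Lrtm1, a leucine-rich repeat membrane protein, Nat8f7, of the N-acetyltransferase family, and Clec2h, a lectin, fell from 5.77 to 14.6 CPM (median 7.69), 0.984 to 3.36 CPM (median 2.01) and 2.50 to 10.2 CPM (median 5.68) to at most 1.16, 0.777 and 0.519 CPM in FPC-GFP (log2 fold changes -4.38 ± 0.54, -3.70 ± 0.66 and -4.58 ± 0.50, adjusted p = 0.000198, 0.00171 and 9.68e-05). Gm29216, annotated as a pseudogene on chromosome 1, was at 43.9 to 858 CPM (median 136) in CON-GFP livers and 20.0 to 36.9 CPM (median 27.0) in FPC-GFP livers, with 1 CON-GFP liver far above the rest (log2 fold change -3.08 ± 0.59, adjusted p = 0.00254). Srrm4os, an antisense transcript, and the unnamed transcripts Gm31583 and Gm4956 each fell by more than 3 on the log2 scale (-3.24 ± 0.31, -3.39 ± 0.49 and -3.39 ± 0.39).

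The 6 FPC-GFP livers did not share the changes equally. Of the 681 genes called higher, liver 19 held the highest FPC-GFP value for 307 (45.1%) and liver 11 for 165 (24.2%), and liver 20 held the lowest FPC-GFP value for 270 (39.6%). Of the 349 genes called lower, liver 11 held the lowest FPC-GFP value for 128 (36.7%) and liver 19 for 103 (29.5%). In CON-GFP, liver 2 held the lowest value for 294 of the genes called higher (43.2%) and the highest for 150 of those called lower. These shares describe genes that were chosen on the same livers. Liver 20 of FPC-GFP and liver 2 of CON-GFP had the lowest total counts of their groups, 17813507 and 17741598. Their sheet numbers, 79 and 80, lie outside the run of sheet numbers that was also compared separately. The part of depth and sheet number in these shares was not tested. Among genes described above, liver 19 was highest for the macrophage genes Gpnmb, Trem2 and Cybb and for Gstm1 and Cbr3. Liver 11 was highest for the stress genes Srxn1, Hspb1 and Hspa1b, for the annexin Anxa2 and for the droplet gene Plin2. Without FPC-GFP 19, 545 genes were called higher and 312 lower, and without FPC-GFP 11, 698 and 315.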

How the data were processed

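Liver RNA of 12 mice, 6 per group, was analysed. Each library is 1 mouse. Per the study's methods and the labels' processing notes, the authors trimmed paired-end reads, aligned them with HISAT2 2.1.0 to mouse build GRCm38 (mm10) and counted them with featureCounts, and they deposited raw counts for 55487 genes in 23 columns. Of these, 5 columns of other vectors match no sample and were not used. A stranded or an unstranded kit was used, and which library had which, the strand setting, the annotation version and the handling of shared reads are not given in the sources used here. Antisense and near-identical genes are therefore uncertain.

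Genes were filtered with filterByExpr, scaled by the trimmed mean of M values and tested with edgeR 4.0.16 (R 4.3.3, quasi-likelihood, Benjamini-Hochberg), and the code was tested on simulated data. DESeq2 1.42.0, other scalings, filters and thresholds, all 18 libraries, sheet numbers 55 to 63 and leaving out libraries were alternatives. Pairs of libraries of a group differed by more than sampling noise. Gene coordinates are from GENCODE M21, in which 55227 genes were found.

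The comparison and the gene lists were chosen with earlier results of these data known. Genes named are those marked as key in a list, up to 3 members per list with the largest change and a mean of at least 1 CPM, its most abundant member, and over all genes, the 15 called genes that increased most and the 15 that decreased most with groups that do not overlap. Motifs for antioxidant and heat shock genes were chosen after values were seen. Some genes of the lists are not reported here.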

Additional observations from a re-analysis of the deposited data

Results flagged for a closer look

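Each group of 6 livers was searched for a highest or lowest liver whose gap to the nearest other liver, divided by the range of the group, exceeded Dixon's 95% critical value. The groups searched were those of each tested gene named here, in each diet, other than Col18a1 and Col1a1. Of 336 groups 38 held such a liver, and chance flags about 1 in 20 where values are normally distributed. The search used CPM without logarithms, so skewed values alone can raise the number of flags at the upper end. Liver 1 of CON-GFP lay apart at the upper end for Acta2 (8.59 CPM, next 2.91), Cdkn1a (310.4 CPM, next 94.4), Ehhadh (719 CPM, next 383) and Marco (6.96 CPM, next 2.64). Liver 2 of CON-GFP lay apart at the upper end for Abca1 (182 CPM, next 101), Atg5 (86.0 CPM, next 65.9), Ghr (1208 CPM, next 728), Mup3 (25456 CPM, next 13885), Sult1b1 (104.8 CPM, next 51.0) and Sult2a8 (1983 CPM, next 1188). Liver 2 of CON-GFP lay apart at the lower end for Vwf (1.86 CPM, next 3.59). Liver 3 of CON-GFP lay apart at the upper end for Cyp2a4 (6.998 CPM, next 2.59) and Saa1 (1122 CPM, next 377). Liver 3 of CON-GFP lay apart at the lower end for Peg10 (0.151 CPM, next 0.375). Liver 6 of CON-GFP lay apart at the upper end for Gm29216 (858 CPM, next 140.5). Liver 7 of CON-GFP lay apart at the upper end for Hsd3b5 (343 CPM, next 173) and Nr1d1 (36.1 CPM, next 12.2). Liver 8 of CON-GFP lay apart at the upper end for Cyp7a1 (62.8 CPM, next 24.6) and Nr1h4 (215 CPM, next 178). Liver 8 of CON-GFP lay apart at the lower end for Ddit3 (3.85 CPM, next 7.31). Liver 11 of FPC-GFP lay apart at the upper end for Cidec (404 CPM, next 214), Col4a1 (107 CPM, next 52.7), Hspb1 (292 CPM, next 74.5), Mt1 (432 CPM, next 29.4), Peg10 (12.7 CPM, next 4.56) and Srxn1 (607 CPM, next 137). Liver 12 of FPC-GFP lay apart at the upper end for Bhmt (2195 CPM, next 865) and Stab2 (62.2 CPM, next 46.1). Liver 19 of FPC-GFP lay apart at the upper end for Cbr3 (24.1 CPM, next 9.62) and Lpl (105.4 CPM, next 48.7). Liver 20 of FPC-GFP lay apart at the upper end for Abca1 (182 CPM, next 109.8), Cyp39a1 (56.4 CPM, next 29.1), Cyp7b1 (185 CPM, next 90.2), Hsd3b5 (107 CPM, next 2.96), Lpin1 (117 CPM, next 49.96), Nat8f7 (0.777 CPM, next 0.205) and Pklr (566 CPM, next 347). Liver 20 of FPC-GFP lay apart at the lower end for Pltp (38.7 CPM, next 89.2).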

How the results depend on the processing

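Of 337 tested genes taken by the naming rule, the 235 that passed kept their sign under every alternative that tested them. Of the 102 that did not pass, 39 changed sign under at least 1 alternative, none past the threshold there, and 19 changed sign under library size alone, Cpt1a, Atp5a1, Socs2, Isg15 and Stab2 among these. The median log2 fold change of 15 of the 70 lists changed sign under at least 1 alternative, and that of 9 under library size alone, from -0.156 to 0.0365 for nuclear receptors and from -0.0542 to 0.142 for bile acid and organic anion transport. Scaling by library size alone gave 1054 genes called higher and 225 lower, in place of 681 and 349. Without a fold minimum the counts were 1850 and 1560, with a 1.5-fold minimum 1347 and 907, and at an adjusted p below 0.01 they were 467 and 219. All other alternatives stayed within 1.5 times: DESeq2's Wald test gave 683 and 373, and leaving out single libraries gave 545 to 748 higher and 284 to 400 lower. Of the 235 genes, 55 no longer had an adjusted p below 0.05 within sheet numbers 55 to 63 (median size of the log2 fold change 0.93 in all 12 livers and 0.76 there), 73 with all 18 libraries in the fit (0.81 and 0.81), 18 under library size alone (0.58 and 0.37) and 38 without CON-GFP 2 and FPC-GFP 11 (1.0 and 0.81), an alternative chosen after seeing the data. The cause was not tested. No paired analysis was possible because the mouse numbers of the groups do not overlap. Depth limits genes of a few counts, and counts of up to 3 in a library cannot be told from 0.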
